A study of Mus musculus with 1528 samples.

Results

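The 2 mice of this experiment were wild-type C57BL/6, and macrophages grown from their bone marrow (BMDMs) received IL4+IL13 for 24 h, alone or together with TNF (the IL4+IL13+TNF group). Every cytokine was used at 10 ng/ml. Live single cells went into wells for Smart-seq2, which sequences full-length cDNA. The age of the mice is not given in the sources used here, and all cells had been grown with M-CSF (CSF1), so each group is a culture of differentiated cells and not a tissue. A culture here is 1 mouse under 1 treatment, which gives 4 cultures, and each of 4 plates held both treatments of 1 mouse. The cells described here, called high-score cells, were chosen by the measured levels of 6 genes and were the 216 kept wells with the highest score, of 1439 kept wells and 1524 wells in all. The score was the mean of log2(CPM + 1) over 6 genes, Gpnmb, Fabp4, Fabp5, Mfge8, Atp6v0d2 and Lhfpl2, where CPM is the number of fragments of a gene per 1000000 fragments in genes of that well, and the top 15% of kept wells were taken over all cultures together. A well was kept with at least 200000 fragments, at least 5000 genes and at most 10% of its fragments in mitochondrial genes.

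As background, Gpnmb encodes a transmembrane glycoprotein of late endosomes and lysosomes that macrophages make when lysosomes are loaded with lipid or debris. Fabp4 and Fabp5 encode cytosolic carriers of fatty acids, Mfge8 a secreted bridge between dying cells and the integrins of the phagocyte, Atp6v0d2 a subunit of the proton pump that acidifies lysosomes, and Lhfpl2 a tetraspan membrane protein. Macrophages that take up lipid break it down in lysosomes, re-esterify cholesterol, store it in droplets or export it, and the transcription factors PPARγ and MiT/TFE are known regulators of lipid handling and of lysosomal genes.

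The score had no gap at the limit that separated the high-score cells. It ran from 1.43 to 10.9 over all kept cells with a median of 6.06, the lowest high-score cell stood at 8.008 and the highest other cell at 8.005. Within 0.25 of the limit lay 43 high-score cells and 54 other cells, so the limit cut through a filled stretch of the score. A limit set as a top share cannot show whether these cells are a separate type, and this was not tested. The 10 cells just outside had a higher median than the 10 just inside for 5 of the 6 genes, for example 6007 against 4369 CPM of Gpnmb, and Fabp4 was the exception at 255 against 273 CPM. These values are those the cells were chosen by and are given as a description, without a test.

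**Figure D1:**
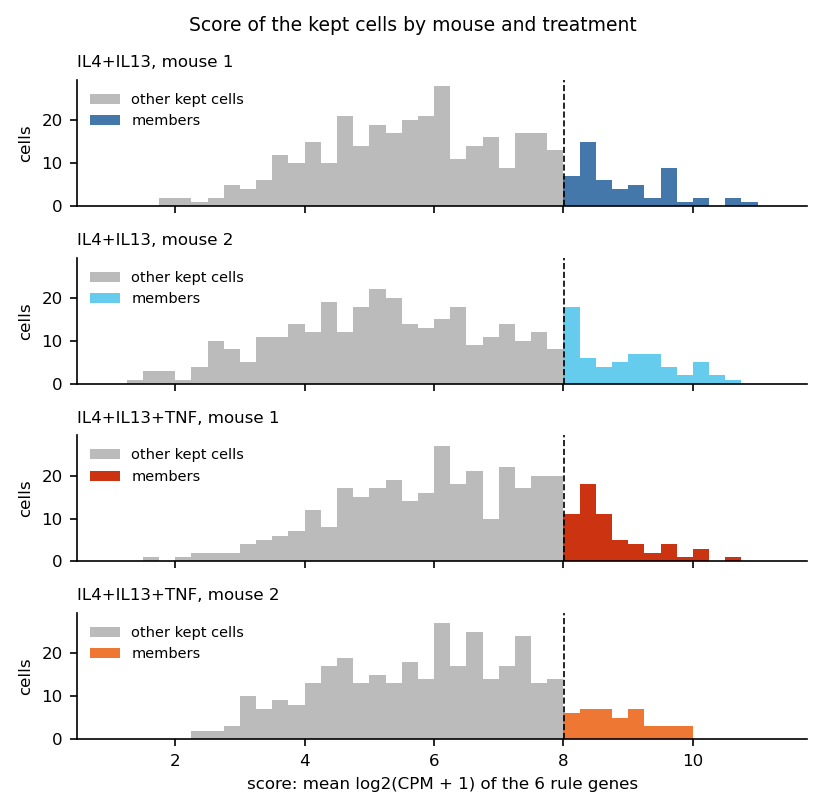
Histograms of the score (horizontal axis, mean log2(CPM + 1) of the 6 genes) in each of the 4 cultures, with the number of cells on the vertical axis, other kept cells in grey and high-score cells in color. The dashed line is the limit near 8.01, and the counts run across it without a gap in all 4 cultures.

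Fragments of Fabp5 need care, since the mouse genome holds near-identical copies of its transcript. Gm6166, a gene model on chromosome 9 (mm10, 57483963 to 57484371), matched the Fabp5 transcript over 409 bases at 98.3% identity. Its count was 67.8% of that of Fabp5 over all kept cells, and the 2 followed each other across 1439 cells with r = 0.97 on the log scale. The opening 120 coding bases of Fabp5 and the same stretch of Gm6166, read 5′ to 3′ from GENCODE transcripts of the mm10 assembly, show how little the fragments have to tell them apart; the capital marks the 1 base that differs, and the longest run in common was 111 bases while reads were 50 bases long.
Fabp5: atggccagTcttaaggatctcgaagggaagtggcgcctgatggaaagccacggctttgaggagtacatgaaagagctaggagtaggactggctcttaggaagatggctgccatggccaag
Gm6166: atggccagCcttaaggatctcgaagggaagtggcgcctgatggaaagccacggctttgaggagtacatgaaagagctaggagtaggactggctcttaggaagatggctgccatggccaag
4 more copies, Gm14328, Gm6100, Fabp5l2 and Gm13998, matched at 93.6% to 97.3% identity. The level of Fabp5 is therefore uncertain by the share of its fragments that went to a copy or was dropped, and the copies are not counted below as further genes of the high-score cells.

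The 6 genes differed in how far they set the high-score cells apart. For Fabp4, the median over high-score cells was 512 CPM in mouse 1 and 400 CPM in mouse 2 without TNF and 260 and 505 CPM in the same mice with it. The other cells of these cultures had medians of 2.51, 2.69, 2.95 and 3.42 CPM. Fabp4 was thus near absent in the typical other cell, where its median count was 1 or 2 fragments, and it gave 25.9% of the mean difference in score.

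Gpnmb had fragments in 100% of cells on both sides of the limit. Its median was 6975, 7151, 8291 and 7054 CPM in the high-score cells of the 4 cultures (IL4+IL13 of mouse 1 and 2, then IL4+IL13+TNF of mouse 1 and 2, the order used from here on). In the other cells it was 3104, 3208, 4093 and 3431 CPM. Gpnmb gave 7.45% of the difference in score, the least of the 6 genes, and so marked these cells by degree.

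Atp6v0d2 had medians of 968, 1124, 1237 and 1096 CPM in high-score cells. In the other cells they were 103 and 34.95 CPM without TNF but 492 and 422 CPM with it. For this pump subunit the distance between the cells was smaller in both cultures with TNF.

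Mfge8 was the most uneven of the 6 genes inside the high-score cells. Its medians were 82.4, 133, 53.8 and 75.1 CPM there and 1.62 to 1.83 CPM in the other cells, but 82.9% to 88.3% of high-score cells per culture had any fragment of it, against at least 96.7% for the other genes shown here. Fabp5 had medians of 570 to 830 CPM in high-score cells and 57.3 to 118 CPM in the others. Lhfpl2 had medians of 125 to 272 CPM in high-score cells and 5.18 to 70.4 CPM in the others.

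**Figure D2:**
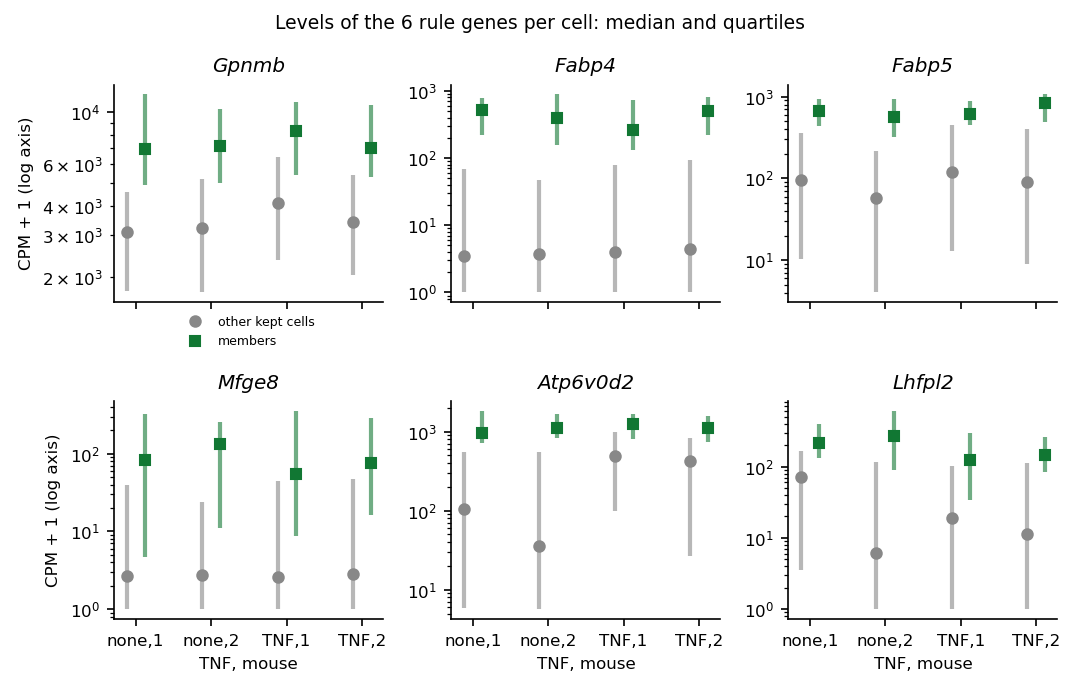
Level of each of the 6 genes per cell (vertical axis, CPM + 1, log axis) in high-score cells (green squares) and other kept cells (grey circles) of each culture, named on the horizontal axis by TNF and mouse; points are medians and bars the quartiles. Gpnmb is far above 1000 CPM in both kinds of cell, while the median of Fabp4 in other cells is between 2.51 and 3.42 CPM.

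Not every high-score cell was high for every gene. Of the 216 cells, 100 were above the median of all kept cells in all 6 genes, 90 in 5, 23 in 4 and 3 in 3, and 7 of the 1223 other cells were also above it in all 6. Over the 1439 kept cells, which share plates and depth, Fabp4 and Fabp5 went together most (Pearson r = 0.55 of log2(CPM + 1)), followed by Gpnmb and Atp6v0d2 (r = 0.38), while Mfge8 had r of at most 0.11 with any of the other 5. Among the high-score cells alone, Fabp4 and Mfge8 had r = -0.36. A cell can reach a summed score through 1 gene or through another, so this last value is no more than a description of the cells chosen.

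Choosing the top 15% again with 1 gene left out shows how far the other 5 carry it. Without Gpnmb in the score, 202 of the 216 cells (93.5%) were chosen again, and Gpnmb in the cells so chosen had medians of 6379 to 7560 CPM against 3183 to 4170 CPM in the rest. Without Fabp4, 177 cells (81.9%) were chosen again, and the cells so chosen had Fabp4 medians of 293, 334, 135 and 221 CPM against 2.72 to 4.35 CPM in the rest. Without Mfge8, 160 cells (74.1%) were chosen again, and Mfge8 had medians of 2.53, 18.1, 3.66 and 17.1 CPM against 2.04 to 2.39 CPM. The other 5 genes thus picked out cells with high Fabp4 in every culture, and cells with a median of Mfge8 at a few fragments in both cultures of mouse 1.

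The share of high-score cells did not move one way with TNF. With IL4+IL13 it was 14.9% in mouse 1 (54 of 362 cells, 95% exact Clopper-Pearson interval 11.4% to 19.01%) and 16.99% in mouse 2 (61 of 359, 13.3% to 21.3%). With IL4+IL13+TNF it was 16.5% in mouse 1 (60 of 363, 12.9% to 20.8%) and 11.5% in mouse 2 (41 of 355, 8.42% to 15.3%). TNF minus no TNF was 1.61 percentage points in mouse 1 and -5.44 in mouse 2. Per plate and treatment the share ran from 8.57% to 18.97%. With 2 mice a treatment the smallest p that an exact two-sided permutation test can give is 0.333, so none was run; the intervals cover counting error only. The share also follows from a limit set over all cultures at once.

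The 6 genes were also summed over all kept cells, high-score or not, a comparison added after the data were seen that the limit of the score does not touch. Summed Atp6v0d2 was 495 and 501 CPM in the 2 cultures without TNF and 808 and 672 CPM in those with it, so that both cultures with TNF were above both without. The difference was 0.57 ± 0.16 on the log2 scale (edgeR, SE, 2 mice, adjusted p = 0.43, or 0.052 in the fit with mouse as a block). Lhfpl2 was 126 and 136 CPM without TNF and 96.7 and 101 CPM with it, a difference of -0.41 ± 0.16 (adjusted p = 0.62, or 0.10 in the blocked fit). Gpnmb, Fabp4, Fabp5 and Mfge8 had differences from 0.03 to 0.34. None of the 6 genes passed 0.05, where 1 of 17033 genes did (0.00587%), or 731 with the mouse as a block (4.29%).

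Depth and detected genes of the high-score cells were close to those of the others. The median was 449499 to 492627 fragments and 7546 to 8055 genes per well in the 4 cultures, against 444154 to 486488 fragments and 7373 to 8163 genes in the others. All 10 macrophage identity markers were above 1 CPM in every sum, with log2 differences of -0.44 to 0.43. Of these, 2 were higher and 3 lower in all 4 cultures, where 7.84% and 14.6% of all genes were. The 8 lymphoid, 7 stromal and 6 erythroid markers were all below 1 CPM in every sum, as were 8 of 9 neutrophil markers and 6 of 8 mast cell markers. Of 6 endothelial markers, 3 were below 1 CPM in every sum (Cdh5, Tie1, Emcn), and the list summed to 134, 196, 87.8 and 114 CPM in high-score cells and to 90.5, 132, 64.3 and 97.1 CPM in the others. Most of this was Vwf, von Willebrand factor, which was higher in all 4 cultures (0.51 ± 0.09, adjusted p = 0.133), as was the receptor Kdr (0.51 ± 0.21). The part of endothelial cells in the results was not tested. Of 6 adipocyte markers, which were looked at because fat cells also make Fabp4, 3 were below 1 CPM in every sum (Plin1, Cidea, Cfd) and the list summed to 0.343 to 16.8 CPM in high-score cells and 0.880 to 4.01 CPM in the others. The word lipid in a name for these cells rests on genes alone, since lipid was not measured. 6 wells held more than 1500000 fragments, 1 of them a high-score cell of IL4+IL13+TNF mouse 2 that gave 14.8% of the fragments of its sum.

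To ask what else differed in the high-score cells, counts were summed over the high-score cells and over the other kept cells of each culture, and each culture was compared with itself (edgeR quasi-likelihood test, 8 sums, culture as a block, Benjamini-Hochberg adjustment, threshold 0.05). The 6 genes of the score were left out, and the other genes were not used by the score, though they come from the same wells. Of 17098 genes, 2 passed (0.0117%): Mgl2 fell and Gm6166, the Fabp5 copy, rose by 1.85 on the log2 scale. At an unadjusted p under 0.05 there were 1079 higher genes (6.31%) and 1054 lower genes (6.16%). DESeq2 called 589 higher (3.44%) and 486 lower (2.84%). Limma on mean log values called 189 (1.11%) and 70 (0.409%), and edgeR after every cell was thinned to 200000 fragments called 78 (0.515%) and 37 (0.244%).

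Mgl2, which encodes a lectin of the Clec10a kind and is a marker of IL4-driven macrophages, was at 261, 257, 139 and 148 CPM in the high-score cells of the 4 cultures. In the other cells it was at 881, 680, 439 and 537 CPM. Every high-score sum was below every sum of other cells, with TNF or without, as for 2.6% of all genes. The log2 difference was -1.62 ± 0.09 (SE, 4 cultures, edgeR adjusted p = 0.038), and Mgl2 was lower in the high-score cells of every plate and treatment, 8 of 8. Any fragment of Mgl2 was found in 93.1% of high-score cells and 94.4% of the others, and at this depth such a share does not tell a low level from a high one. Leaving out any 1 of the 4 cultures ended this call, since the adjusted p was then 0.283 and 0.056 without IL4+IL13 of mouse 1 and mouse 2, and 0.136 and 0.152 without IL4+IL13+TNF of mouse 1 and mouse 2, with log2 values of -1.55 to -1.70. It was also lost with kept cells chosen by plate and median absolute deviation (0.062), with the top 10% (0.0515) and with the top 15% within each culture (0.0553).

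The genes with the steadiest difference were taken, after the data were seen, as those past 0.05 in all 3 other fits (DESeq2, limma and thinned edgeR), on the same side in all fits and all 4 cultures and found in at least 25% of cells of the higher side. There were 69 higher (0.404% of 17098), of which 63 were named genes that are not copies of Fabp5, and 15 lower (0.0877%). In the main test all of these but Mgl2 and Gm6166 had an adjusted p above 0.05, so the values below describe and do not call.

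Of the 15 higher and 10 lower genes named from these, all but 3 were on the same side in 8 of 8 plate and treatment pairs. Tmem26, Slc30a1 and Mblac2 were higher in 7. The pairs hold the same cells by which these genes were chosen for one side in every culture. Their agreement thus follows in part from that choice and is no separate support. Il11ra1, the α chain of the IL11 receptor, was at 133, 106, 191 and 167 CPM in high-score cells. It was at 46.3, 44.1, 102 and 85.5 CPM in the others, a log2 difference of 1.22 ± 0.12 (edgeR adjusted p = 0.077). Il7r, the α chain of the IL7 receptor, was at 260 to 490 CPM against 113 to 208 CPM with no overlap (1.17 ± 0.16), where 1.26% of all genes had every high-score sum above every other sum. Tmem26, a membrane protein known as a surface marker of beige fat cells, was at 31.1 to 54.2 against 15.5 to 21.6 CPM (1.38 ± 0.19). Slc30a1, which exports zinc, was at 39.4 to 98.6 against 17.2 to 47.4 CPM (1.12 ± 0.13), higher within every culture while the ranges overlapped. Cd36, a scavenger receptor that takes up oxidized lipid and fatty acids, was at 1501, 845, 1726 and 750 CPM against 897, 350, 1028 and 532 CPM (0.87 ± 0.13). Mouse 1 was above mouse 2 in both kinds of cell. A list of 10 cytokine receptors and their signalling genes, which holds neither Il11ra1 nor Il7r, had a median of 0.13. In this list 2 were higher and 1 lower in all 4 cultures, where 7.84% and 14.6% of all genes were.

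Mgst1, a microsomal glutathione transferase, was at 236 to 316 against 120 to 184 CPM (0.88 ± 0.08), and Anxa1, a lipid-binding annexin, at 4048 to 6759 against 1773 to 4866 CPM (0.90 ± 0.11). Dnmt3a, a DNA methyltransferase, was at 271, 347, 662 and 479 CPM against 161, 179, 345 and 296 CPM (0.89 ± 0.07). Rilpl2 (0.87), Iqsec1 (0.96), Ttyh2 (0.93), Cipc (0.86), Mblac2 (1.15) and Cdk20 (1.09) were higher in every culture on the log2 scale. For Cdk20 this was uneven, as the difference was 1.68 in IL4+IL13+TNF of mouse 2 and about 0.8 in the other 3 cultures.

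Genes on the lower side belonged in part to antigen presentation and co-stimulation. Cd86, a ligand that co-stimulates T cells, was at 2.81, 0.978, 3.16 and 2.74 CPM in high-score cells and at 11.05, 11.9, 16.7 and 34.4 CPM in the others (-2.84 ± 0.38, adjusted p = 0.083). Cd40, the receptor for T cell help, was at 9.98 to 14.1 against 25.2 to 30.2 CPM (-1.27 ± 0.16), and Gpr183, a receptor for oxysterols that guides migration, at 2.64 to 7.48 against 22.2 to 51.2 CPM (-2.71 ± 0.19). None of these 3 genes overlapped between the sums, where 2.6% of all genes lay wholly below. They were found in fewer high-score cells too, with any fragment of Cd86 in 16.7% against 27.7% of cells and of Gpr183 in 32.9% against 43.6%. Rnase6 (-1.85), Tgfbi (-1.19), Apobec3 (-1.05), Cks1b (-1.04), Maf (-1.01), a transcription factor of C1q-expressing macrophages, and Coro1a (-0.87), which binds actin, were lower in all 4 cultures.

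**Figure D3:**
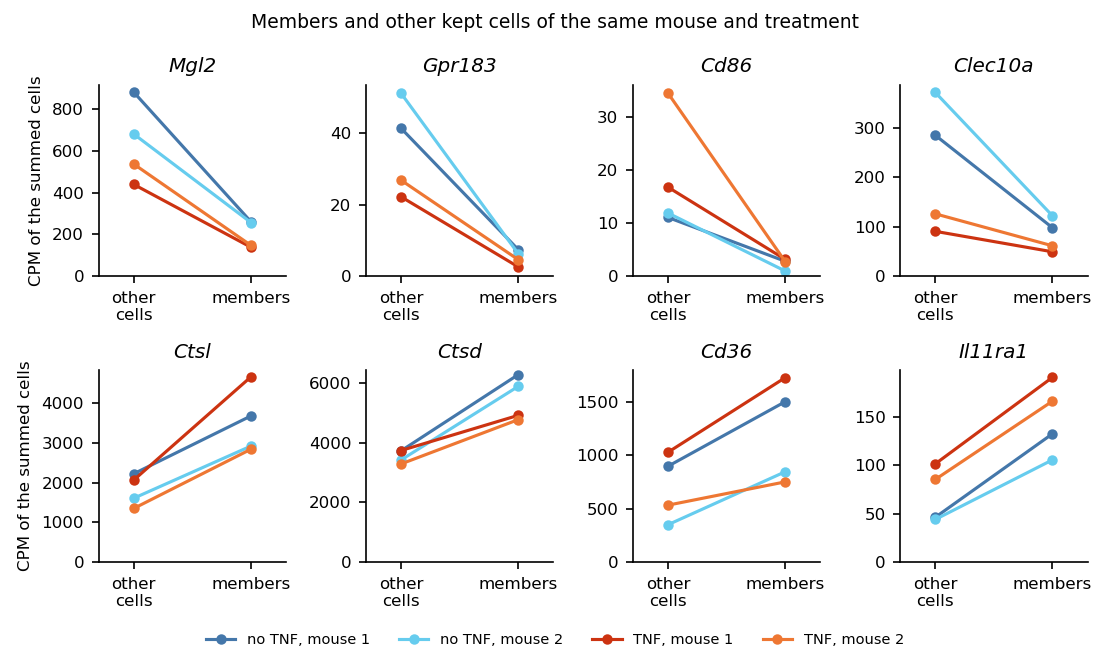
CPM of the summed cells (vertical axis, linear from 0) for 8 genes, with other kept cells on the left and high-score cells on the right of each panel and a line for each of the 4 cultures. Mgl2, Gpr183, Cd86 and Clec10a go down in all 4 cultures, and Ctsl, Ctsd, Cd36 and Il11ra1 go up in all 4.

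Lysosomal genes stood mostly to the higher side, although none of their members passed the test. The vacuolar ATPase (V-ATPase) pumps protons into lysosomes, and Atp6v0d2 of the score is one of its subunits. All 17 other subunits and accessory genes had positive log2 differences, 15 of them in all 4 cultures, where 7.84% of all genes were above in all 4, and 16 had an unadjusted p under 0.05 on the higher side, where 6.31% of all genes did. Their median was 0.29, against -0.03 over all 17098 genes. Atp6v0a1, of the membrane sector, was at 228, 211, 300 and 229 CPM against 161, 157, 197 and 165 CPM (0.56 ± 0.06, adjusted p = 0.077). Atp6v1a, the catalytic subunit, was at 1028 to 1348 against 843 to 988 CPM (0.42 ± 0.04), and Atp6v1c1 had the largest value of the list (0.62 ± 0.11). Scaling by library size in place of TMM moved the median of all genes to -0.15 and that of the V-ATPase genes to 0.17. A change of scaling shifts all genes by nearly the same amount. The distance between the 2 medians was therefore kept by construction and is no separate support.

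Of 29 lysosomal enzymes and membrane proteins, 20 were higher in all 4 cultures and 0 lower in all 4, where 7.84% and 14.6% of all genes were. The median log2 difference was 0.29. 21 of these genes had an unadjusted p under 0.05, all on the higher side, where 6.31% of all genes were higher with one. Ctsl, which encodes the protease cathepsin L, was at 3676, 2918, 4661 and 2839 CPM against 2222, 1606, 2064 and 1349 CPM (1.01 ± 0.08, adjusted p = 0.057). The lowest high-score sum of Ctsl was above the highest other sum, as for 1.26% of all genes. Ctsk, a collagen-cleaving cathepsin, was at 83.3 to 122 against 32.9 to 55.3 CPM (1.38 ± 0.19), was higher in 7 of 8 plate and treatment pairs and was found in 65.3% against 40.7% of cells. Ctsd was at 6282, 5888, 4918 and 4774 CPM against 3728, 3422, 3739 and 3289 CPM (0.67 ± 0.07), Cd63, a tetraspanin of late endosomes, was at 1569 to 2014 against 884 to 1443 CPM (0.66 ± 0.07), and Gaa, which breaks down lysosomal glycogen, was at 79.2 to 154 against 60.5 to 78.8 CPM (0.62 ± 0.12). Ctsb (0.40), Cd68 (0.43) and the saposin precursor Psap (0.49) had smaller differences with no overlap between the sums. Of the MiT/TFE factors and their regulators, which are known to act on such genes, 3 of 10 were higher in all 4 cultures. Over all genes this share was 7.84%. Mitf was at 57.5 to 91.0 against 32.5 to 61.7 CPM (0.57 ± 0.14) and Tfeb at 58.5 to 73.8 against 34.9 to 50.3 CPM (0.60 ± 0.14).

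MiT/TFE factors are known to bind the letters CACGTG, so promoters were searched for them on both strands, 250 bases before to 50 bases after the start of transcription (RefSeq, GRCm38.p6). The letters were in 10 of the 24 lysosomal genes with a promoter in the table (Ctsa, Ctsd, Ctsl, Gaa, Gla, Glb1, Lamp1, Lgmn, Mcoln1 and Naglu), in 4 of 12 V-ATPase genes, in 4 of 23 lipid genes and in 8.09% of all 27025 genes of the table, or 7.15% of its 32851 promoters, since a gene can have more than one. None of the 3 score genes in the table (Gpnmb, Lhfpl2 and Mfge8) had a match; Fabp4, Fabp5 and Atp6v0d2 have no entry. Windows of 30 bases around the match are shown for 3 genes of these lists, on the strand of the gene, 5′ to 3′, with the match in capitals. The first is Ctsl at chr13:64370739-64370768 on the minus strand, the second Lamp1 at chr8:13159088-13159117 on the plus strand, and the third Atp6v1a at chr16:44139373-44139402 on the minus strand.
Ctsl: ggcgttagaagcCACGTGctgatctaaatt
Lamp1: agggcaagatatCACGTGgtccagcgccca
Atp6v1a: ttttttttaaatCACGTGataggcttaacg
The related letters CATGTG were in 7 of 24, 1 of 12 and 2 of 23 genes of these lists and in 15.9% of all genes of the table. The DR1 motif, a direct repeat bound by PPARγ with RXR, was in 0 of the genes of these lists and in 0.0481% of all. A match is a string of letters, and binding was not measured here.

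**Figure D4:**
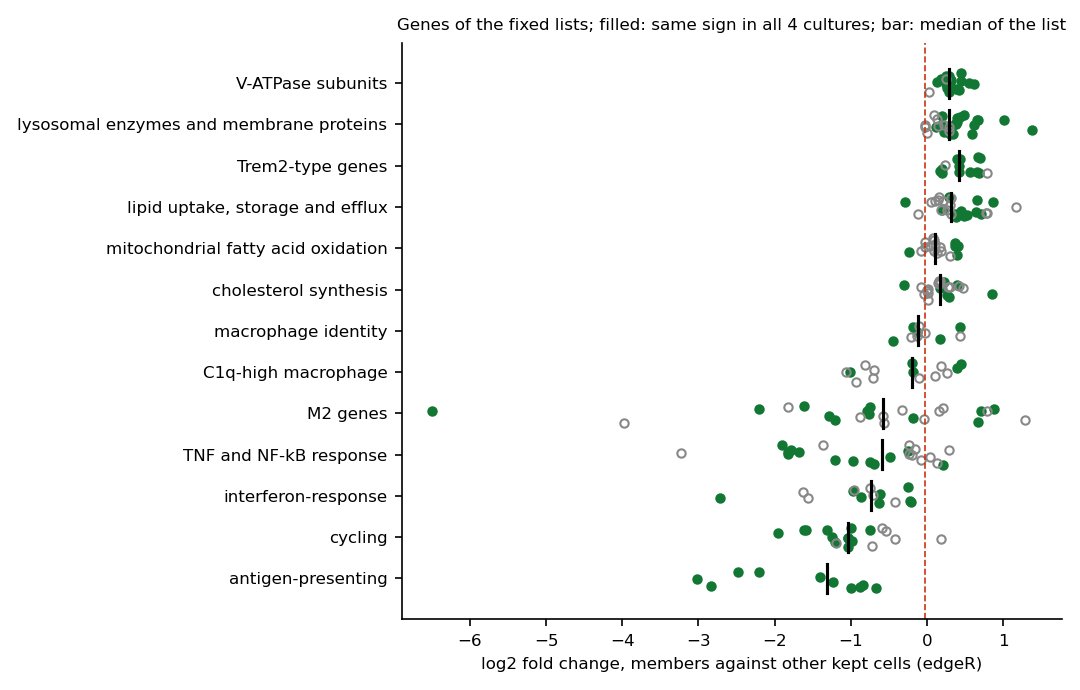
Log2 fold change of high-score against other kept cells (horizontal axis, edgeR) for each tested gene of 13 gene lists; filled points have the same sign in all 4 cultures, black bars are list medians and the dashed line is the median of all genes (-0.03). The V-ATPase genes lie together near 0.29, while antigen-presenting genes lie at -0.67 and below.

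The lipid genes pointed the same way, with exceptions. Of 28 tested genes of lipid uptake, storage and efflux, 13 were higher in all 4 cultures and 1 lower, with a median of 0.32. Over all genes 7.84% were higher and 14.6% lower in all 4. 13 higher genes and 1 lower gene had an unadjusted p under 0.05, where 6.31% and 6.16% of all genes did. Pparg, the fatty acid-sensing nuclear receptor, was at 124, 94.0, 72.9 and 62.5 CPM against 68.8, 68.2, 51.0 and 35.6 CPM (0.71 ± 0.11, adjusted p = 0.0997). Plin2, which coats lipid droplets, was at 1045 to 1601 against 580 to 1196 CPM (0.64 ± 0.11), and Soat1, which esterifies cholesterol, at 462 to 526 against 355 to 386 CPM (0.49 ± 0.05) with no overlap. Every high-score sum was above every other sum in 1.26% of all genes. Enzymes that release lipid again were also on the higher side in all 4 cultures: Nceh1, which cleaves cholesterol esters (0.45 ± 0.05), Lipa, the lysosomal acid lipase (0.38 ± 0.06), and Pnpla2, the droplet lipase (0.52 ± 0.13). The same held for Npc2, which hands cholesterol out of the lysosome (0.29 ± 0.04), and Lrp1, a lipoprotein receptor (0.41 ± 0.07). Pltp, which transfers phospholipids between lipoproteins, was lower in all 4 cultures (-0.29 ± 0.05). Fabp3, a further fatty acid carrier, was at 12.7 to 22.01 against 13.3 to 18.4 CPM and higher in 3 of 4 cultures.

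Genes of fat burning and of cholesterol synthesis stood less clearly apart. Of 17 genes of mitochondrial fatty acid oxidation, 4 were higher and 1 lower in all 4 cultures, with a median of 0.11 against -0.03 over all genes. Under library size scaling, which shifts all genes nearly alike, these medians were -0.02 and -0.15. Of 23 genes of cholesterol synthesis, 6 were higher and 1 lower in all 4, with a median of 0.17. Over all genes 7.84% were higher and 14.6% lower in all 4 cultures. Glycolysis genes had a median of 0.02 against -0.03 over all genes, or -0.11 against -0.15 under library size scaling.

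Genes known from Trem2-dependent lipid-associated macrophages had higher values in these cells. None of the 14 passed the test. All 14 had positive values, 12 in all 4 cultures (7.84% of all genes), 13 had an unadjusted p under 0.05 (6.31% of all genes on the higher side), and the median was 0.43. Spp1, which encodes osteopontin, was at 4943, 3684, 6127 and 3715 CPM against 3283, 1851, 3917 and 2891 CPM (0.70 ± 0.10). Cd9, a tetraspanin, was at 1944 to 2329 against 1367 to 1731 CPM (0.56 ± 0.07), Syngr1 at 271 to 400 against 141 to 297 CPM (0.68 ± 0.10) and Lgals3, which encodes galectin-3, at 13692 to 21199 against 10032 to 17574 CPM (0.42 ± 0.04). Trem2 itself, the lipid-sensing receptor, was at 753 to 1000 against 482 to 877 CPM (0.43 ± 0.10). The members without one sign in the 4 cultures were Apoe and Anxa2, an annexin, which was at 1903 against 1914 CPM in IL4+IL13+TNF of mouse 1 and higher in the other 3 cultures (0.24 ± 0.07). Apoe differed by treatment: without TNF it was at 575 and 627 CPM against 181 and 246 CPM, while with TNF it was at 55.7 CPM against 85.0 CPM in mouse 1 and at 113 CPM against 83.3 CPM in mouse 2. This list shares Ctsb, Ctsd and Cd63 with the lysosomal genes, Apoe and Lpl with the lipid genes and Cd9 with the fusion genes.

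Genes of alveolar macrophages, which also carry much Fabp4 and Pparg, were testable for 8 of 16, all 8 with positive values and 2 higher in all 4 cultures. Of 14 tested genes of cell fusion and osteoclasts, 2 were higher and 3 lower in all 4. Over all genes 7.84% were higher and 14.6% lower in all 4 cultures, which are the shares to set beside the counts of this paragraph. Dcstamp, which macrophages need to fuse, was at 0.116, 0.228, 21.97 and 6.59 CPM in the high-score cells and at 7.73, 7.89, 38.7 and 54.4 CPM in the others. Acp5, which encodes an osteoclast phosphatase, was at 5.74, 4.47, 32.2 and 21.4 against 5.05, 4.77, 13.3 and 12.9 CPM, and Itgax, an integrin, at 11.8, 42.0, 103 and 90.2 against 8.56, 16.7, 86.6 and 114 CPM. Of 16 genes of apoptotic-cell uptake, the process Mfge8 serves, 4 were higher and 4 lower in all 4 cultures. Itgb5, a subunit of an integrin that binds Mfge8, was at 73.6 to 104 against 49.1 to 81.7 CPM (0.57 ± 0.11), while the receptor Axl was at 0.771, 14.5, 13.4 and 12.4 against 19.7, 51.5, 37.2 and 57.5 CPM (-2.32 ± 0.53).

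The M2 genes were split. Of 23 genes, 3 were higher and 9 lower in all 4 cultures, where 7.84% and 14.6% of all genes were. The 23 values, 7 of them positive, ran from -6.50 to 1.28 with a median of -0.57. Clec10a, a lectin next to Mgl2, was at 98.2, 122, 49.5 and 61.7 CPM against 285, 372, 91.0 and 126 CPM (-1.21 ± 0.15, adjusted p = 0.077) and lower in 8 of 8 plate and treatment pairs. Ccl2, a monocyte chemokine, was at 540, 59.0, 313 and 88.4 against 708, 133, 595 and 164 CPM (-0.79 ± 0.13), and Retnla, a secreted product of IL4-driven macrophages, at 79.4, 58.8, 0.410 and 6.77 against 84.1, 558, 12.95 and 25.1 CPM (-2.21 ± 0.74). Mrc1, the mannose receptor, differed little at 523 to 961 against 579 to 1252 CPM (-0.18 ± 0.07). The genes higher in all 4 cultures were Egr2, a transcription factor downstream of STAT6, at 78.2 to 160 against 44.1 to 121 CPM (0.67 ± 0.10), the cross-linking enzyme Tgm2 (0.71 ± 0.17) and fibronectin, Fn1 (0.88 ± 0.30).

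Genes of antigen presentation were lower in the high-score cells in every member that could be tested. All 10 were lower in all 4 cultures, where 14.6% of all genes were, and had an unadjusted p under 0.05, where 6.16% were lower with one, and their median was -1.31; none passed the test. H2-Eb1, a chain of MHC class II, was at 2.43, 47.5, 151 and 95.4 CPM against 133, 310, 403 and 836 CPM (-3.01 ± 0.68, adjusted p = 0.185). H2-Aa was at 8.90, 96.1, 390 and 272 CPM against 280, 496, 732 and 1358 CPM (-2.49 ± 0.66), and Cd74, the invariant chain, at 37.1 to 538 against 249 to 731 CPM (-1.40 ± 0.39). The cultures differed widely from each other, and any fragment of H2-Aa was found in 83.3% of high-score and 87.2% of other cells. Dendritic cell markers were lower when summed: 8 markers reached 14.99 to 30.7 CPM in high-score cells and 23.5, 43.0, 48.7 and 253 CPM in the others. 1 marker (Clec9a) was below 1 CPM in every sum. Of the 5 markers that could be tested, 2 were lower and 1 higher in all 4 cultures, where 14.6% and 7.84% of all genes were. The part of dendritic cells in the result was not tested. Against the 14.6% of all genes that were lower in all 4 cultures, 8 of 14 interferon-response genes were lower and 0 higher, with a median of -0.73, and of 18 cycling genes 12 were lower and 0 higher, with a median of -1.04. Mki67, a marker of dividing cells, was at 63.9, 69.6, 10.0 and 39.3 CPM against 135, 107, 56.2 and 47.9 CPM (-1.04 ± 0.37). Of 14 genes of C1q-high macrophages 2 were higher and 3 lower in all 4, where 7.84% and 14.6% of all genes were.

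How these differences lay along the score varied from gene to gene. When kept cells of each culture were cut by score into 5 bands of equal size, the mean of log2(CPM + 1) of Ctsl was 9.39 ± 0.53 (SD, 4 cultures) in the lowest band, 10.4 ± 0.42 in the middle one and 11.28 ± 0.27 in the highest. Cd36 was at 6.48 ± 1.39, 8.11 ± 1.10 and 8.86 ± 1.03 in these bands, and Pparg at 2.65 ± 0.88, 3.52 ± 0.58 and 4.48 ± 0.71. Mgl2 was at 7.54 ± 1.12, 6.86 ± 1.35 and 5.51 ± 0.87, and Cd74 at 7.80 ± 1.38, 6.68 ± 1.69 and 6.03 ± 1.79. Others had stretches with little change: from the lowest to the highest band Maf was at 5.26, 5.27, 5.33, 4.76 and 4.0, and H2-Aa at 5.94, 4.96, 4.92, 4.93 and 4.35. The bands are given as a description, since the score was computed from the same wells.

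TNF inside the high-score cells was compared over the 4 sums of high-score cells, from the same 2 mice under both treatments. The main test had treatment as its only term and did not pair the sums by mouse. No gene of 15335 passed in the main edgeR test (0%). 1048 genes (6.83%) had an unadjusted p under 0.05, 475 higher and 573 lower with TNF, and DESeq2 called 228 (1.49%), 124 higher and 104 lower. The same edgeR test on the other cells called 1 of 17076 (0.00586%), Clec4e, and with the mouse as a block 631 (3.7%), while the block left the high-score cells at 0. The sums of high-score cells held 24200362 to 29874197 fragments, the others 140247718 to 158072882, and the numbers of calls in the 2 kinds of cell are not compared for that reason.

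Genes of the TNF and NF-kB response had higher values with TNF inside the high-score cells. Of 20 tested genes of this list, 19 were higher with TNF in both mice, where 29.2% of all genes were, with a median log2 difference of 2.67, and DESeq2 called 15 higher. In the other cells all 23 tested genes were higher in both mice (34.7% of all genes), with a median of 2.45. Clec4e, a lectin that senses mycobacterial lipid, was at 21.3 and 11.9 CPM without TNF and at 534 and 706 CPM with it in high-score cells, a log2 difference of 5.24 ± 0.39 (edgeR adjusted p = 0.315). In the other cells it was at 18.6 and 20.9 against 720 and 685 CPM, 5.14 ± 0.19 (adjusted p = 0.022). Acod1, which makes itaconate, was at 0.385 and 1.04 CPM without TNF and 76.2 and 253 CPM with it. Saa3, an acute-phase protein, was at 0.193 and 0.424 without TNF and 53.0 and 38.1 CPM with it in high-score cells, and at 0.699 and 1.68 against 150 and 135 CPM in the others. Nfkbia, the inhibitor of NF-kB (2.16 ± 0.23), Sod2, a mitochondrial superoxide dismutase (1.80 ± 0.18), Icam1, an adhesion molecule (3.34 ± 0.39), Tnfaip3 (2.45 ± 0.30) and Cxcl2 (4.04 ± 0.75) had values on the same side in both mice. In the comparison of high-score with other cells, 11 of 22 tested genes of this list were lower and 1 higher in all 4 cultures. Over all genes 14.6% were lower and 7.84% higher in all 4. The median of the list was -0.59, and none of its genes passed the test. Saa3 was among the lower genes (-1.68 ± 0.14, edgeR adjusted p = 0.057), at no more than 1.68 CPM in the cultures without TNF.

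M2 genes went both ways with TNF inside the high-score cells. Of 22 tested, 11 were higher and 7 lower in both mice, where 29.2% and 27.8% of all genes were, with a median of 0.21. Tgm2 was among those with higher values (1.15 ± 0.41). The lower ones included the 4 that follow. Mgl2 was at 261 and 257 CPM without TNF and at 139 and 148 CPM with it (-0.85 ± 0.19), Clec10a at 98.2 and 122 against 49.5 and 61.7 CPM (-0.99 ± 0.28), Retnla at 79.4 and 58.8 against 0.410 and 6.77 CPM (-4.24 ± 1.24) and Apoe at 575 and 627 against 55.7 and 113 CPM (-2.82 ± 0.41). Adjusted p in edgeR was 0.468 to 0.635 for these 4 genes, which were named for their values in the comparison above or after their TNF effect was seen. DESeq2 called Retnla and Apoe (adjusted p = 4.6e-05 and 1.7e-10) but not Mgl2 or Clec10a (0.104 and 0.147).

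Lysosomal and lipid genes had medians near 0 with TNF in the high-score cells, with members on both sides. The median log2 difference was 0.03 over the 29 lysosomal genes (9 higher and 12 lower in both mice). It was 0.06 over the 17 V-ATPase genes (8 and 4) and -0.05 over the 28 lipid genes (7 and 12). Over all genes 29.2% were higher and 27.8% lower in both mice. Of the lipid genes 4 higher and 5 lower ones had an unadjusted p under 0.05, against 6.83% of all genes in either direction, and DESeq2 called 3 higher and 1 lower. Single lipid genes ran from -2.82 to 6.76. Pla2g7, a lipase of oxidized phospholipids, had 1.59 ± 0.46, Pltp -0.84 ± 0.18, and Apoe the value given above. Ctsl was at 3676 and 2918 against 4661 and 2839 CPM with TNF (0.18 ± 0.24) and Cd36 at 1501 and 845 against 1726 and 750 CPM (0.07 ± 0.44), for both of which the mice went opposite ways. Ctsd (-0.33 ± 0.10) and Pparg (-0.69 ± 0.25) were lower in both mice, and Ctsz, cathepsin Z, was higher (0.68 ± 0.11). Nr1h3, which encodes the oxysterol receptor LXRα, was at 15.8 and 9.16 without TNF and 41.6 and 54.2 CPM with it (1.95 ± 0.41, DESeq2 adjusted p = 0.0017). Acp5 was higher with TNF in both mice (2.39 ± 0.42).

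**Figure D5:**
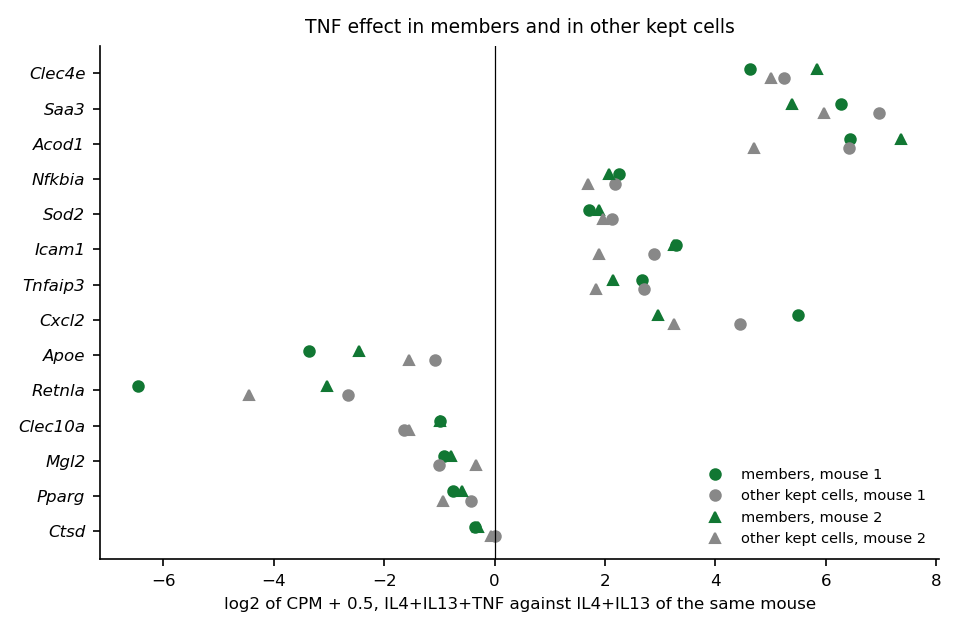
Log2 difference of CPM + 0.5 between IL4+IL13+TNF and IL4+IL13 of the same mouse (horizontal axis) for 14 genes, in high-score cells (green) and other kept cells (grey), with mouse 1 as circles and mouse 2 as triangles. Clec4e lies at about the same place in both kinds of cell, while both green points of Apoe lie to the left of both grey points.

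Whether TNF acted differently on high-score and other cells was tested as an interaction over the 8 sums. No gene of 17098 passed (0%), 732 (4.28%) had an unadjusted p under 0.05, and DESeq2 called 50 (0.292%). Apoe had an interaction of -1.58 ± 0.39 on the log2 scale (unadjusted edgeR p = 0.011), where the TNF effect was -2.82 in high-score and -1.36 in other cells. Clec10a had 0.62 ± 0.14, Ctsl 0.34 ± 0.08, Ctss, cathepsin S, -0.26 ± 0.05, Ctsd -0.29 ± 0.07, Ctsz -0.26 ± 0.07 and Atp6v1c1 -0.45 ± 0.11, all with an adjusted p of 1. For Clec4e the interaction was 0.12 ± 0.38 and for Mgl2 -0.17 ± 0.16. With 2 mice, a p that misses the threshold does not show that TNF acted alike on both kinds of cell.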

How the data were processed

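A single table of raw counts, 1 column a well, was deposited by the authors. Per the paper and the labels, gsnap placed the fragments on mm10, and featureCounts 1.6.3 gave those mapped uniquely to genes of Ensembl 98 without regard to strand, so overlapping and antisense genes cannot be told apart. No molecular identifiers were used, so PCR copies are counted. The 92 spike-in rows were left out of totals, 8 columns that match no sample label and 4 samples with no mouse in their labels were not used. The labels give no sequencing batch and no cell type annotation was used; no doublet caller was run, since cells were sorted singly into wells.

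Kept cells held 200235 to 6122892 fragments (median 471020). Counts were summed per culture and tested with edgeR 4.0.16 (glmQLFit, glmQLFTest, TMM, R 4.3.3) on genes found in at least 5% of cells of either side that pass filterByExpr. The tests were checked first on simulated counts with a common dispersion of 0.033 and no differences between cultures. Of 2-fold changes, 99% were recovered for high-score against other cells and 70% for TNF inside the high-score cells. For the interaction 5% of 2-fold and 96% of 4-fold changes were recovered. The simulation left out differences between cultures, so these shares need not hold for the data. Per culture and per mouse differences use log2(CPM + 0.5). Alternatives were DESeq2 1.42.0, limma 3.58.1 on mean log2(CPM + 1), thinning to 200000 fragments, library size scaling, no filter, other limits of the score, other kept cells, a replicate block and leaving out 1 sum. Both treatments of a mouse carry its number in the labels and share plates, so the samples are paired; deviations from the treatment means had r = 0.18 over 15335 genes. Copies of the 6 genes were found with blastn 2.17.0 against GENCODE transcripts.

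The members, the gene lists and the genes named were chosen with earlier results of these data known. Beside list genes, the text names by rule the 15 largest rises and 10 largest falls past the threshold, on the same side in all 4 cultures and found in 25% of cells of the higher side; as only Mgl2 met it, the same numbers were taken from the genes past 0.05 in 3 other fits, a step added after the data were seen.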

Additional observations from a re-analysis of the deposited data

Results flagged for a closer look

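In each of the 75 genes of the comparison of high-score with other cells that were looked at, the 4 cultures' log2 differences were tested for 1 culture far from the other 3 (Dixon's test at 95%); chance gives such a value in about 1 of 20 genes, and 3 were found. Cdk20, a cyclin-dependent kinase, had a difference of 1.68 in IL4+IL13+TNF of mouse 2, the next culture being at 0.82. Gaa, lysosomal alpha-glucosidase, had 0.96 in the same culture and 0.48 in the next. That culture holds the well of 3578643 fragments, which makes up 14.8% of its sum. Without the 6 wells over 1500000 fragments the log2 value over all 4 cultures was 0.93 for Cdk20, against 1.09 with them, and 0.49 for Gaa, against 0.62 with them; without that culture as a whole the values were 0.88 and 0.49. Ctsb, cathepsin B, had 0.22 in IL4+IL13+TNF of mouse 1 and 0.37 in the next culture.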

How the results depend on the processing

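For high-score against other cells, where 2 genes passed, the count was 1075 with DESeq2, 259 with limma, 115 after thinning, 6 with no filter on low counts, 4 with no replicate block and 9 for the top 20% of kept cells. It was 0 for the top 10%, for the top 15% within each culture and for kept cells chosen by plate and median absolute deviation, and 0 to 1 with 1 culture left out. With library size in place of TMM it was 3, of which 1 was higher and 2 lower. Without the 6 wells over 1500000 fragments, an alternative chosen after the data were seen, it was 2. For TNF inside the high-score cells, where 0 passed, the count was 228 with DESeq2, 2 with limma, 367 with no filter on low counts and 0 to 1 with 1 sum left out, the 1 being found without IL4+IL13+TNF of mouse 2, and 0 with the mouse as a replicate block; a lone sum of a treatment is then assumed to have the spread of the others. The block changed no other call inside the high-score cells. For the interaction it was 50 with DESeq2 and 1 with no filter. The cause of these differences between tools was not tested. The mean difference in share of -1.92 percentage points between TNF and no TNF was positive at 0.31 for the top 20%, at 0.03 without Fabp4 and at 1.70 without Lhfpl2 in the score.

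For named genes no sign turned between high-score and other cells in 1125 values under alternatives. Part of these genes were named for having one sign in several of these fits and in every culture. The alternatives also largely reuse the same cells, so the lack of turns is in part built in. The TNF effect inside high-score cells turned for Cd36 (-0.60 to 0.53 with 1 sum left out, below 0 without IL4+IL13 of mouse 2, at -0.25, and without IL4+IL13+TNF of mouse 1) and Ctsl (-0.081 with limma, -0.18 to 0.46 with 1 sum left out, lowest without IL4+IL13+TNF of mouse 1). The interaction of Mgl2 turned to 0.50 with limma and 0.12 for the top 10%; the cause was not tested.

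Depth limits genes of a few CPM, at which the sums of high-score cells hold few fragments, and 2 mice limit each comparison of TNF.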
